A study of Mus musculus with 16 samples.

Results

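Spleens of untreated mice lacking PKR were compared with spleens of untreated wild-type mice. The comparison took every library of both genotypes sampled on day 0, 2 from PKR knockout (KO) mice and 2 from wild-type (WT) mice, 4 of the 16 libraries of the study. All mice were C57BL/6 males, and those of day 0 had no imiquimod cream on the skin. The other 12 libraries came from KO and WT mice on days 1, 2 and 5 of daily treatment with 62.5 mg of 5% imiquimod cream, a Toll-like receptor 7 agonist used to model psoriasis. Each library pooled the spleens of 2 mice, so that n = 2 libraries a genotype and the spread between single mice was not measured. Cells had been meshed and freed of red cells by lysis. The allele, the exons it removes, the source of the KO colony and the age of the mice could not be taken from the sources used here.

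PKR, the product of Eif2ak2, is a kinase that binds double-stranded RNA, dimerises and phosphorylates the translation factor eIF2alpha. Phosphorylated eIF2alpha lowers general protein synthesis while it favours translation of ATF4, a transcription factor of stress genes. Eif2ak2 is itself an interferon-stimulated gene. The spleen filters blood in its red pulp and holds B and T cells in its white pulp, and in mice it also makes red cells and granulocytes.

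The day 0 libraries held 49927735 and 41010297 fragments in KO and 44401257 and 67333830 fragments in WT. They were alike: over 18745 genes the Spearman rho between any 2 of the 4 was 0.987 to 0.993, and the closest pair by counting statistics was 1 KO with 1 WT library. Levels below are CPM, counts scaled to library size, for comparing a gene between libraries, or the authors' FPKM, which divides by transcript length, for comparing genes. One library of a later day went against its label. The library labelled KO day 2 replicate 1 had 47.5 CPM of Eif2ak2, against 32.8 and 42.5 CPM in the WT day 2 libraries. The test shared its estimate of spread over all 16 libraries, so values without that library are given where they differ.

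Of the 10 most abundant protein-coding transcripts of the resting spleen, 9 were shared by the genotypes. Mitochondrial mt-Co1, a cytochrome oxidase subunit, had 3822 and 5133 FPKM in KO and 3852 and 3318 FPKM in WT. The translation factor Eef1a1 had 2367 and 2492 FPKM in KO and 2618 and 1970 FPKM in WT, and Actb, beta-actin, 1781 and 1561 FPKM in KO and 1909 and 1460 FPKM in WT. Rps27 stood in the top 10 of KO only and Cd74, the MHC class II invariant chain, in that of WT only, at 1187 and 1006 FPKM in KO and 1320 and 962 FPKM in WT. Ccnb1ip1 headed both lists, but its first exon overlaps Rpph1, the RNA of ribonuclease P, on the same strand, so its level cannot be told from that of Rpph1.

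Markers of 24 cell types placed the libraries as spleen. All 20 follicular and mature B cell markers, all 25 T cell markers, all 19 red pulp macrophage markers and all 16 monocyte markers reached 1 FPKM in all 4 libraries. Cd79b, a chain of the B cell receptor, had 228 and 223 FPKM in KO and 252 and 186 FPKM in WT. Trbc2, the T cell receptor beta constant chain, had 139 and 147 FPKM in KO and 162 and 121 FPKM in WT. S100a9, a neutrophil alarmin, had 595 and 526 FPKM in KO and 508 and 858 FPKM in WT. The groups overlapped for each of these 3 genes. Of 24 genes of the pancreas, which lies beside the spleen, 16 were at 0 in all 4 libraries, among them Cpb1, Pnlip, Ins1 and Ins2, and none reached 1 FPKM in all 4. Fibroblast and reticular cell genes were scarce, with levels that summed over 26 genes to 2.2 FPKM in each KO library and 2.2 and 2.0 FPKM in the WT libraries.

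**Figure D1:**
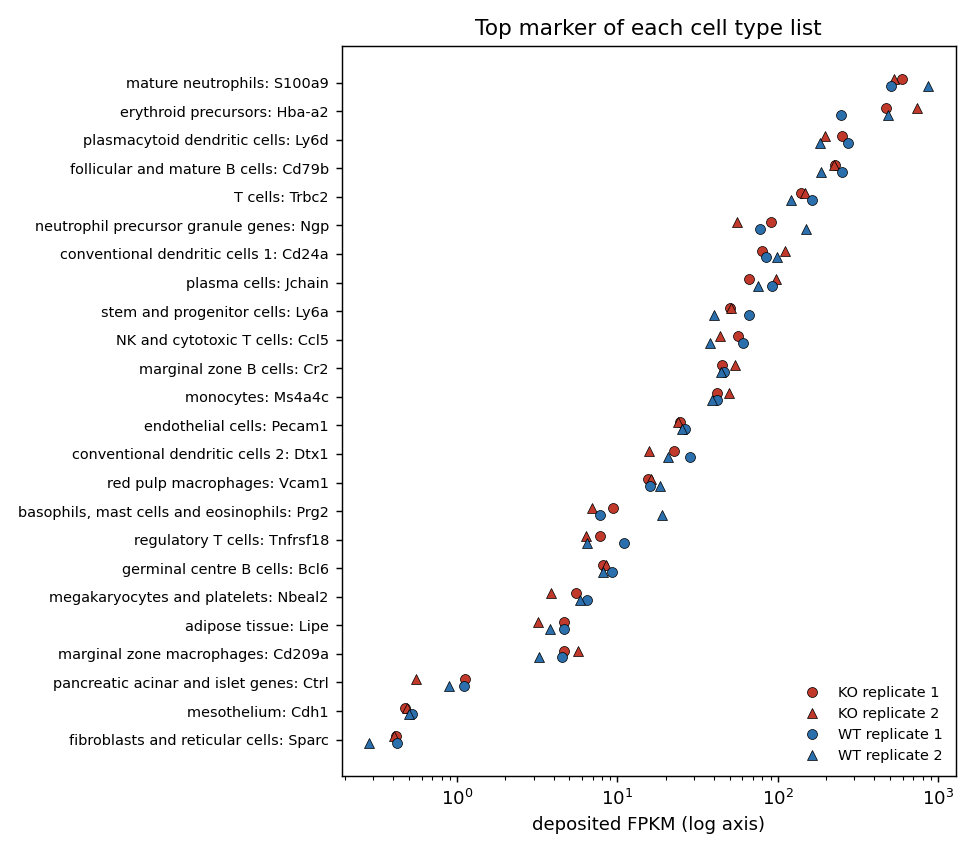
Deposited FPKM, on a log axis, of the most abundant marker of each of 24 cell type lists in the 4 untreated libraries; red symbols are KO and blue symbols WT, circles replicate 1 and triangles replicate 2. KO and WT symbols overlap for S100a9, Cd79b and Trbc2, and the markers run from S100a9 at 508 to 858 FPKM down to Sparc at 0.28 to 0.42 FPKM.

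The targeted gene was lower in the KO libraries but not absent. Eif2ak2 (chr17:78852564-78882573, mm10, minus strand) had 12.4 and 15.4 CPM in KO, against 24.9 and 26.6 CPM in WT. Both KO libraries lay below both WT libraries. The log2 difference was -0.89 (SE 0.29), which missed the threshold (adjusted p = 0.802, edgeR quasi-likelihood test with Benjamini-Hochberg adjustment over 18745 genes). Without the library labelled KO day 2 replicate 1 the difference was -0.89 with adjusted p = 0.0208, and without KO day 2 replicate 2 adjusted p = 0.0183; these fits called 0.0256% and 0.0257% of all genes, and each leaves 1 library in that group, assumed to vary like the rest. The promoter of the gene is printed from RefSeq because Eif2ak2 is the gene the genotypes differ by. It covers chr17:78882523-78882822 (GRCm38.p6, minus strand), with the annotated start at base 251 of 300. Capitals mark a match to GAAANNGAAA, the core of the interferon-stimulated response element.
Eif2ak2 promoter: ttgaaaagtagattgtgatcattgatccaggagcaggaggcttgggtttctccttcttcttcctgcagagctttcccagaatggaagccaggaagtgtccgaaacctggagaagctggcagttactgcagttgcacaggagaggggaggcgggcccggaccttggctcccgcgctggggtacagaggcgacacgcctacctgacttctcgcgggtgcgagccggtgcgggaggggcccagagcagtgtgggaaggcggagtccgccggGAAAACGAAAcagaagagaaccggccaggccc
On either strand, this motif was found in 3.44% of 32851 promoters of the same length.

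All 4 annotated Eif2ak2 transcripts kept fragments in the KO libraries. The coding transcript of 4313 bases had 590 and 593 fragments in KO and 1125 and 1677 in WT, or 2.74 and 3.35 FPKM in KO and 5.87 and 5.77 FPKM in WT. A short transcript at the 5′ end, chr17:78878115-78882554, had 1.71 and 2.25 FPKM in KO and 3.88 and 4.42 FPKM in WT. A retained-intron transcript nearer the 3′ end, chr17:78855354-78858980, had 1.88 and 2.87 FPKM in KO and 2.47 and 3.07 FPKM in WT, with the groups overlapping. Isoforms share fragments in these counts. An exact two-sided permutation of the 4 libraries gave p = 0.333 for each of the 3 transcripts whose groups did not overlap, the smallest p that 4 libraries allow, and p = 0.667 for the other.

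Across all genes, 4 passed the test, 3 higher and 1 lower in KO, or 0.0213% of the 18745 tested (0.016% higher and 0.00533% lower). At an unadjusted p under 0.05, 556 genes were higher and 558 lower in KO, or 2.97% and 2.98% of the genes tested. Both KO libraries lay above both WT libraries for 18.0% of genes and below both for 14.3%; this count involves no test. Without single libraries the count differed: 0 genes passed the edgeR test without KO replicate 1 (2573 at an unadjusted p under 0.05), 1 (0.00511%) without KO replicate 2, 55 (0.282%, 52 of them lower) without WT replicate 1 and 1 (0.00512%) without WT replicate 2. The 4 genes were past the threshold in the fit without WT replicate 1 and in none of the other 3, where the groups keep a lone library that is assumed to vary like the rest.

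The gene that fell was Ide (chr19:37268743-37330613), which encodes the insulin-degrading enzyme, a protease of insulin and amyloid peptides. It had 24.4 and 29.9 CPM in KO, against 50.01 and 49.1 CPM in WT. The KO libraries were thus all below the WT libraries, with a log2 difference of -0.87 (SE 0.14, adjusted p = 0.0352, edgeR). Fgfbp3, a carrier protein of fibroblast growth factors that lies on the same chromosome at chr19:36917550-36919615, had 0.32 and 0.34 CPM in KO, against 1.17 and 0.98 CPM in WT. Its log2 difference of -1.71 (SE 0.36) did not pass (adjusted p = 0.318, edgeR). As background, the segment with Ide and Fgfbp3 is known to vary in copy number among C57BL/6J mice. Copy number was not measured here.

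The coding gene that rose was Zkscan3 (chr13:21389293-21402695), a zinc finger repressor of autophagy and lysosome genes. It had 41.3 and 48.6 CPM in KO, against 27.1 and 23.5 CPM in WT, with no overlap. The log2 difference was 0.83 (SE 0.14, adjusted p = 0.0352, edgeR).

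Ide and Zkscan3 also separated the genotypes in libraries of other days, which the day 0 contrast did not use. On day 1 Ide had 37.3 and 36.9 CPM in KO, against 76.8 and 77.7 CPM in WT (log2 difference -1.06, adjusted p = 0.00258, edgeR). On day 5 it had 30.5 and 30.7 CPM in KO, against 60.2 and 72.8 CPM in WT (-1.12, adjusted p = 0.0039, edgeR). Over all genes the day 1 contrast called 0.187% and the day 5 contrast 0.00533%. Zkscan3 had log2 differences of 0.67 on day 1 and 0.78 on day 5, with adjusted p of 0.0532 and 0.119 (edgeR). Fgfbp3 differed by -1.75 on day 1 (adjusted p = 0.0487) and -0.88 on day 5 (adjusted p = 0.687, edgeR). On day 2 the edgeR contrast called 0 genes (906 at an unadjusted p under 0.05). There Ide had 48.95 CPM in the library labelled KO day 2 replicate 1 and 36.1 CPM in KO replicate 2. The WT libraries had 44.2 and 41.3 CPM, so that the groups overlapped. Fgfbp3 had 0.39 and 0.21 CPM in KO and 0.32 and 0.35 CPM in WT, also overlapping. Both WT libraries of day 2 lay below the WT libraries of all other days for these genes. Those had 49.1 to 77.7 CPM of Ide and 0.81 to 1.17 CPM of Fgfbp3. Zkscan3 had 29.1 CPM in the library labelled KO day 2 replicate 1 and 37.3 CPM in KO replicate 2, both above the 28.5 and 23.6 CPM in WT (log2 difference 0.35, adjusted p = 0.921, edgeR).

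**Figure D2:**
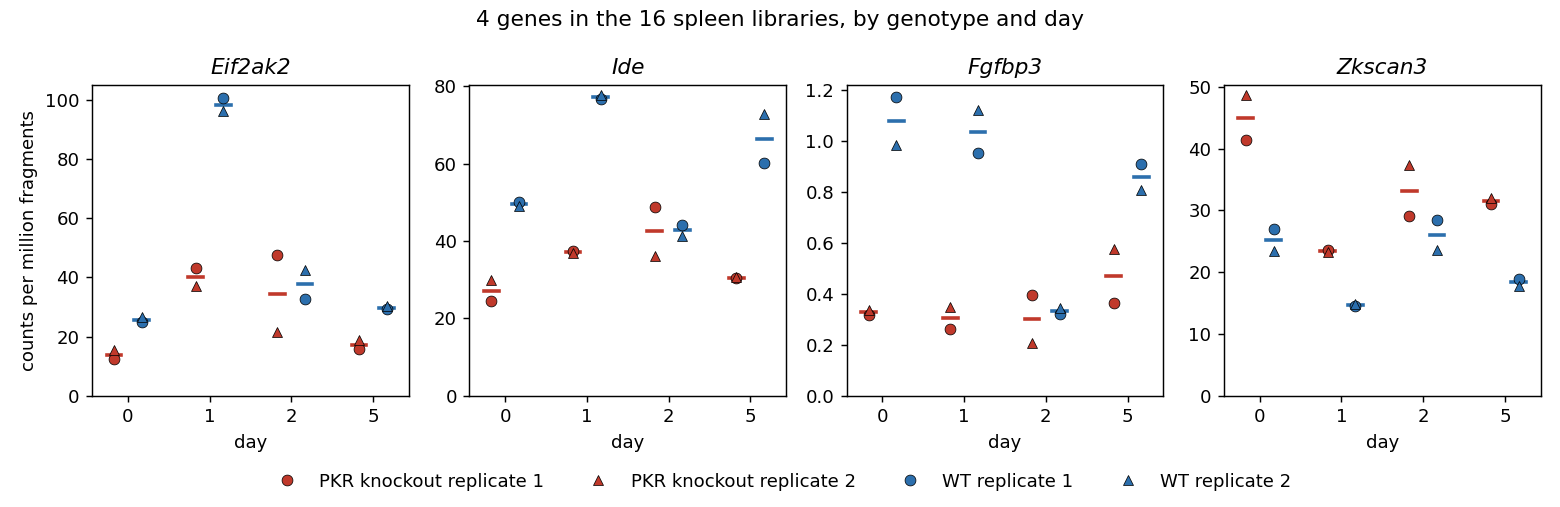
CPM of Eif2ak2, Ide, Fgfbp3 and Zkscan3 in all 16 libraries by day, with KO in red on the left and WT in blue on the right of each day; circles are replicate 1, triangles replicate 2 and bars the mean of 2 libraries. On day 0 the KO libraries lie below WT for Eif2ak2, Ide and Fgfbp3 and above WT for Zkscan3, and on day 2 the red circle for Eif2ak2, at 47.5 CPM, lies above both WT libraries.

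The 2 other genes that rose are open to shared reads. Ighv1-34 is a variable segment of the immunoglobulin heavy chain, one of a family of like sequences. It had 4.05 and 4.03 CPM in KO, against 1.59 and 1.52 CPM in WT (log2 difference 1.37, SE 0.22, adjusted p = 0.0352, edgeR). Its log2 differences on days 1, 2 and 5 were -0.21, -0.21 and -0.66, none past the threshold. Gm26461 is an unnamed RNA at chr9:88553236-88553525, inside the span of Zfp949 on the same strand. It had 20.96 and 23.97 CPM in KO, against 11.7 and 12.001 CPM in WT (0.92, SE 0.14, adjusted p = 0.0352, edgeR), and differences of -0.07 to 0.08 on the other days. How many of its fragments came from Zfp949 was not tested.

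Of the 12 leading genes on the higher side, 6 were small nucleolar or Cajal body RNAs, and 11 did not pass. Small nucleolar RNAs guide the modification and processing of ribosomal RNA. Snora73a had 213 and 180 CPM in KO, against 112 and 132 CPM in WT (log2 difference 0.69, SE 0.16, adjusted p = 0.460, edgeR). It lies inside Snhg3, its host on the same strand, which had 216 and 184 CPM in KO and 116 and 135 CPM in WT, and the fragments of the 2 cannot be told apart. Rnu3a, a U3 RNA of early ribosomal RNA processing, had 62.4 and 72.1 CPM in KO, against 45.2 and 39.5 CPM in WT. Snora81, Snora44, Snord50a and Scarna17 had log2 differences of 0.63, 0.85, 1.87 and 1.03, and their KO libraries also lay above both WT libraries. Over the whole class, 88 of 250 small nucleolar RNAs lay higher in KO in both libraries (35.2%) and 21 lower (8.4%), beside 18.0% and 14.3% over all genes. The median log2 difference of the class was 0.20, and it was 0.16 after the GC correction and 0.13 without KO replicate 2. Of 80 small nuclear RNAs, which serve splicing, 38 lay higher (47.5%) and 4 lower (5.0%), with a median of 0.33 (0.34 after the GC correction), beside 0.00 over all genes. None of either class passed the test, and 26 and 10 of them were higher at an unadjusted p under 0.05 (edgeR), beside 2.97% of all genes. In the shortest of 10 bins of genes by length (median 482 bases) the median log2 difference was 0.09, and 0.12 after the GC correction. Length was not corrected for, so all genes are not a like baseline for these short RNAs. Some other classes also lay higher more often than lower, with processed pseudogenes at 29.4% and 8.9% and lincRNAs at 23.9% and 13.5%. Sense-intronic RNAs went the other way, at 9.8% and 15.5%. On day 1 Snora73a, Snhg3, Rnu3a and Snora81 had differences of the other sign, from -0.50 to -0.40.

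Igha, the constant region of immunoglobulin A, had the largest difference of those leading genes. It had 152 and 128 CPM in KO, against 27.8 and 19.1 CPM in WT, so that the KO libraries lay far above WT. The log2 difference of 2.59 (SE 0.63) did not pass over 16 libraries (adjusted p = 0.714, edgeR), but it did over the 4 day 0 libraries alone (adjusted p = 6.1e-05, edgeR), a fit that called 3 genes, 0.0175% of those tested. In the other days' libraries Igha ran from 10.5 to 81.7 CPM and differed by -0.63, -0.67 and -0.37. Of 13 immunoglobulin constant genes, Igha included, 2 lay higher (15.4%) and 4 lower (30.8%) in both KO libraries, beside 18.0% and 14.3% over all genes. The median log2 difference of the 13 was -0.15, and it was 0.11 without WT replicate 1 and -0.45 without WT replicate 2. Ighm, of immunoglobulin M, had 1572 and 1567 CPM in KO and 2294 and 1940 CPM in WT. Ighg2c had 23.2 and 21.7 CPM in KO and 56.998 and 29.2 CPM in WT. Jchain, which joins the chains of secreted immunoglobulin A and M, had 96.5 and 145 CPM in KO and 126 and 112 CPM in WT, with the groups overlapping. The 18 plasma cell markers, Igha included, had a median log2 difference of -0.13. In both KO libraries 1 gene, Igha itself, was higher and 4 were lower. The median was -0.03 without WT replicate 1 and -0.26 without WT replicate 2.

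Coch, which encodes the secreted protein cochlin, had 2.72 and 3.61 CPM in KO, against 1.48 and 1.52 CPM in WT (log2 difference 1.07, adjusted p = 0.460, edgeR). Srp54a, a subunit of the signal recognition particle, and Fam177a2 had differences of 0.48 and 0.53. Both belong to a duplicated stretch of chromosome 12 with near copies (Srp54b, Srp54c and Fam177a), so their counts are uncertain.

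On the lower side, 11 of the 12 leading genes did not pass. Bicra, a subunit of a SWI/SNF chromatin remodelling complex, had 11.4 and 8.63 CPM in KO, against 14.2 and 24.7 CPM in WT. Its log2 difference of -0.95 (SE 0.20) did not pass (adjusted p = 0.460, edgeR). Kmt2b, a histone H3 lysine methyltransferase, had 41.1 and 34.7 CPM in KO, against 48.2 and 64.7 CPM in WT. Prrc2a had 76.0 and 60.8 CPM in KO, against 87.2 and 119 CPM in WT. Pitpnm2, Bcl9l, Zfp362, Rnpepl1, Kifc1 and Syvn1 had log2 differences from -0.71 to -0.48, and Ceacam16 and Alpl -1.07 and -0.77. In each the KO libraries were both below the WT libraries, and none passed. After the GC correction Rnpepl1 differed by -0.31 and Prrc2a by -0.38, against -0.56 and -0.59 before it, and the 11 genes by -0.86 to -0.31. Without KO replicate 2 Bcl9l differed by -0.42 and Rnpepl1 by -0.36, and without WT replicate 2 Bicra differed by -0.51, Kmt2b by -0.37 and Prrc2a by -0.37. Apart from Ide, the leading genes on the lower side had a transcript GC content of 56.5% to 62.2%, against a median of 49.3% over all genes tested.

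Mid1, a ubiquitin ligase at the edge of the pseudoautosomal region of the X chromosome, had 1.45 and 1.27 CPM in KO, against 3.67 and 3.44 CPM in WT (log2 difference -1.38, adjusted p = 0.460, edgeR). Mid1-ps1, its copy on the Y chromosome, had 0.13 and 0.34 CPM in KO, against 1.44 and 1.06 CPM in WT (-2.45, adjusted p = 0.318, edgeR). Near-identical copies share reads, so both are uncertain. On days 1, 2 and 5 the difference of Mid1 was 0.68, 0.18 and 0.22. Fgfbp3, Mid1, Mid1-ps1, Ighm, Jchain, Ighv1-34 and Gm26461 were chosen after their values were seen. Chac1, Adar, Ncr1, Gzmb, Prf1, Il2ra, Ctla4, Icos, Nnt, Entpd4, Eif2ak1, Eif2ak3 and Eif2ak4 were also named outside the rule for lists, with their values known.

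**Figure D3:**
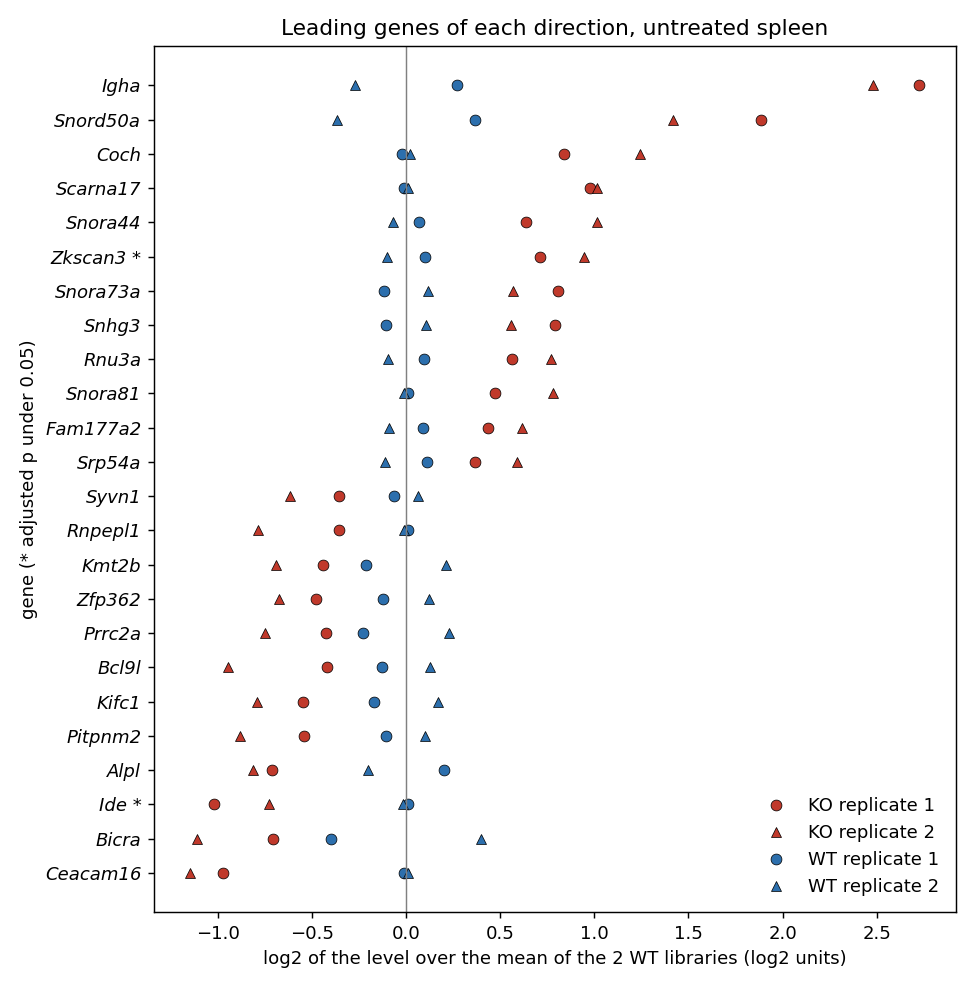
Log2 of the level over the mean of the 2 WT libraries for the 24 leading genes of the day 0 comparison, 12 higher and 12 lower; red symbols are KO and blue symbols WT, circles replicate 1 and triangles replicate 2, and a star marks adjusted p under 0.05. Ide and Zkscan3 carry the star, and KO replicate 2 lies farther from WT than KO replicate 1 for most genes that are lower.

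A trend with base composition ran through the day 0 libraries. KO replicate 2 had fewer fragments on GC-rich and more on GC-poor transcripts than the mean of the 4 libraries. Its median log2 ratio to that mean was 0.27 in the lowest of 10 equal bins of genes by GC content (median 39.2%) and -0.30 in the highest (59.3%), a span of -0.57, and Spearman rho over 13292 genes was -0.76. WT replicate 1 had the opposite trend, with a span of 0.41 and rho of 0.66. KO replicate 1 had a span of 0.18 and rho of 0.44, and WT replicate 2 of -0.00 and -0.03. The KO minus WT difference therefore followed GC content too, with a median of 0.20 in the lowest bin, -0.19 in the highest, and rho of -0.55. With length the rho of the difference was -0.10. By library the rho with length was -0.27 and 0.05 in KO replicates 1 and 2, and -0.23 and 0.38 in WT replicates 1 and 2. In the shortest of 10 bins by length (median 482 bases) the KO minus WT median was 0.09, and 0.12 after the GC correction. Length was not corrected for in any fit. A fit that removed each library's GC trend left medians of 0.01 to 0.05 over the GC bins and called 3 genes (0.016%), Ide, Gm26461 and Ighv1-34. Medians with that correction are given for the gene groups that the trend touches.

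**Figure D4:**
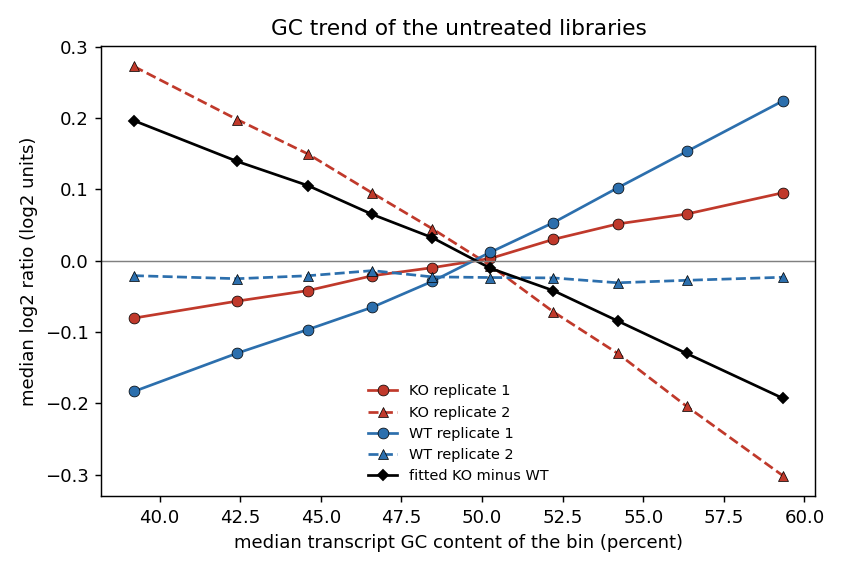
Median log2 ratio of each untreated library to the mean of the 4, by bin of genes ranked on transcript GC content (percent); red is KO, blue WT, circles with solid lines replicate 1 and triangles with dashed lines replicate 2, and black diamonds the fitted KO minus WT difference. KO replicate 2 runs down from 0.27 to -0.30, WT replicate 1 runs up from -0.18 to 0.22, and the difference runs down from 0.20 to -0.19.

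Gene groups were described with 49 lists of cell type markers and pathways. One listed gene, Ide, passed the test, and no other member of any list did. Counts of genes with both KO libraries on one side of both WT libraries are therefore given, to be read beside 18.0% higher and 14.3% lower over all genes. These counts were not corrected for GC content, so they carry the trend above. For lists of GC-poor or GC-rich genes the shares over all genes are therefore not a like baseline.

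The kinase branch that PKR belongs to showed little beyond Eif2ak2 itself. Of 12 genes of eIF2alpha kinases and phosphatases, 4 lay higher and 2 lower, with a median log2 difference of -0.00. The other 3 eIF2alpha kinases had near-equal levels. Eif2ak1, the haem-regulated kinase, had 27.5 and 32.7 CPM in KO and 28.6 and 32.7 CPM in WT. Eif2ak3, PERK of the endoplasmic reticulum, had 51.5 and 52.0 CPM in KO and 53.0 and 53.7 CPM in WT. Eif2ak4, the amino acid sensor GCN2, had 21.6 and 21.3 CPM in KO and 21.3 and 23.7 CPM in WT. Of 34 ATF4 targets tested, 4 lay higher and 4 lower, with a median of -0.05. Psph, of serine synthesis, had 5.95 and 6.03 CPM in KO and 4.97 and 4.02 CPM in WT, and Chac1, which degrades glutathione, 0.42 and 0.47 CPM in KO and 0.73 and 0.71 CPM in WT. Chaperones of the unfolded protein response had a median of 0.05 over 22 genes.

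Interferon-stimulated genes had a median near level between the genotypes, with more members lower than higher in KO. Of 53 tested, 4 lay higher (7.5%) and 12 lower (22.6%), beside 18.0% and 14.3% over all genes. Eif2ak2 itself is on the list and is one of the 12. The median log2 difference was -0.01, and -0.04 after the GC correction. Zbp1, a sensor of Z-form nucleic acid, had 16.1 and 15.9 CPM in KO and 22.1 and 16.8 CPM in WT. Lgals3bp, a secreted glycoprotein, had 19.1 and 15.1 CPM in KO and 25.7 and 19.1 CPM in WT. Of 25 PKR regulators and double-stranded RNA-binding proteins, 2 lay higher and 5 lower. Adar, which edits double-stranded RNA, had 88.0 and 83.8 CPM in KO and 97.2 and 94.4 CPM in WT, a log2 difference of -0.16. Of 20 GTPases induced by interferon gamma, 5 lay higher and none lower, with a median of 0.16 that was 0.12 after the GC correction, 0.25 without KO replicate 1, 0.10 without KO replicate 2, 0.28 without WT replicate 1 and 0.03 without WT replicate 2.

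Natural killer (NK) and cytotoxic T cell genes had the largest share of members higher in KO among the 24 cell type lists. Of 22, 11 lay higher in both libraries and none lower, with a median log2 difference of 0.24, and 9 had an unadjusted p under 0.05. None passed the adjusted test. Klre1, an NK receptor, had 10.8 and 11.2 CPM in KO, against 6.98 and 6.71 CPM in WT (log2 difference 0.68, SE 0.20, adjusted p = 0.714, edgeR). Klrd1, or CD94, had 18.1 and 22.9 CPM in KO and 14.5 CPM in both WT libraries. Gzma, granzyme A, had 45.8 and 39.6 CPM in KO, against 33.9 and 27.5 CPM in WT. Ncr1, the NK receptor NKp46, had 13.9 and 12.8 CPM in KO, against 11.6 and 10.1 CPM in WT, while Gzmb and Prf1, granzyme B and perforin, overlapped between the genotypes. The median was 0.22 after the GC correction, 0.49 without WT replicate 1 and 0.10 without WT replicate 2. Members of the Klra family resemble each other, so Klra4, Klra8 and Klra9 are uncertain. In bulk RNA, more cells of a type and more RNA per cell cannot be told apart.

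Chemokines and their receptors had 15 of 32 genes higher in KO and 2 lower, with a median of 0.21 that was 0.13 after the GC correction and 0.10 without KO replicate 2. Ccl6, a myeloid chemokine, had 47.6 and 59.7 CPM in KO, against 39.4 and 34.5 CPM in WT. Ccl3, which attracts myeloid and NK cells, had 8.43 and 12.1 CPM in KO, against 7.47 and 6.71 CPM in WT. Cxcr6, a receptor of NK and T cells, had 8.43 and 11.2 CPM in KO, against 7.51 and 5.67 CPM in WT. Inflammasome genes had 8 of 21 higher and 1 lower. Their median was 0.08, and it was 0.04 after the GC correction, 0.17 without KO replicate 1 and 0.03 without KO replicate 2. Casp1, the caspase that matures interleukin 1 beta, had 19.6 and 22.4 CPM in KO and 16.3 and 15.3 CPM in WT.

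Of 12 regulatory T cell genes, 6 lay lower in KO and none higher, with a median of -0.29. It was -0.26 after the GC correction, -0.23 without WT replicate 1 and -0.48 without WT replicate 2. Foxp3, the factor that defines these cells, had 3.71 and 3.20 CPM in KO, against 5.41 and 5.32 CPM in WT (log2 difference -0.63, SE 0.23, adjusted p = 0.802, edgeR). Ikzf4, a partner of Foxp3, had 1.29 and 0.91 CPM in KO, against 1.94 and 1.79 CPM in WT. Il2ra, Ctla4 and Icos overlapped between the genotypes. T cell markers as a whole had a median of -0.01 over 25 genes, with 1 higher and 4 lower, and follicular and mature B cell markers 0.03 over 20, with 2 higher and 1 lower. Without single day 0 libraries, the medians of these T and B cell markers, interferon-stimulated genes, ATF4 targets, chaperones and eIF2alpha kinases lay between -0.12 and 0.13, with both signs in each list.

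Of 38 proliferation genes 9 lay lower in KO, none higher and 29 overlapped, with a median of -0.22, and 5 had an unadjusted p under 0.05. Uhrf1, which keeps DNA methylation after replication, had 16.1 and 14.0 CPM in KO, against 19.2 and 21.99 CPM in WT. Of 33 replication-dependent histone genes 20 lay lower, none higher and 13 overlapped, with a median of -0.39. None of either list passed the test. H4c1, a histone H4 gene, had 25.6 and 17.8 CPM in KO, against 32.5 and 30.4 CPM in WT. Histone genes are GC-rich, with a median of 56.5%, and their median was -0.21 in KO replicate 1 and -0.61 in KO replicate 2 relative to the WT mean. After the GC correction it was -0.22, while that of proliferation genes was -0.25. The median of proliferation genes was -0.36 without KO replicate 2, -0.47 without WT replicate 1 and 0.03 without WT replicate 2. That of histone genes was -0.64 without KO replicate 1 and -0.23 without KO replicate 2. The part of base composition in these differences was otherwise not tested.

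Mitochondrially encoded transcripts, which are GC-poor at a median of 37.1%, lay higher in KO for 8 of 13 and lower for none. Their median was 0.33, and 0.15 with the GC correction and 0.12 without KO replicate 2. Relative to the WT mean it was 0.13 in KO replicate 1 and 0.49 in KO replicate 2. For all genes the median was 0.00. The part of base composition was not tested further. mt-Co3 had 1606 and 2281 CPM in KO, against 1556 and 1329 CPM in WT. Ribosomal protein genes lay higher for 25 of 78 and lower for none, with a median of 0.09 that was 0.13 with the correction, 0.01 without KO replicate 1, 0.24 without WT replicate 1 and -0.06 without WT replicate 2. Rps13 had 307 and 316 CPM in KO, against 265 and 235 CPM in WT.

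Red cell and neutrophil precursor genes varied more between replicates than between genotypes. None of 32 erythroid genes had separate groups. Hba-a2, an alpha globin, had 473 and 741 FPKM in KO and 246 and 487 FPKM in WT. The median of the list relative to the WT mean was -0.03 and 0.76 in KO and -0.87 and 0.87 in WT. Granule genes of neutrophil precursors had medians of -0.21 and -0.94 in KO and -0.46 and 0.46 in WT, with 4 of 18 lower and none higher. Ngp, neutrophilic granule protein, had 90.2 and 55.4 FPKM in KO and 77.1 and 149 FPKM in WT. Red cells had been lysed before RNA was extracted, and what this left in each library was not tested.

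**Figure D5:**
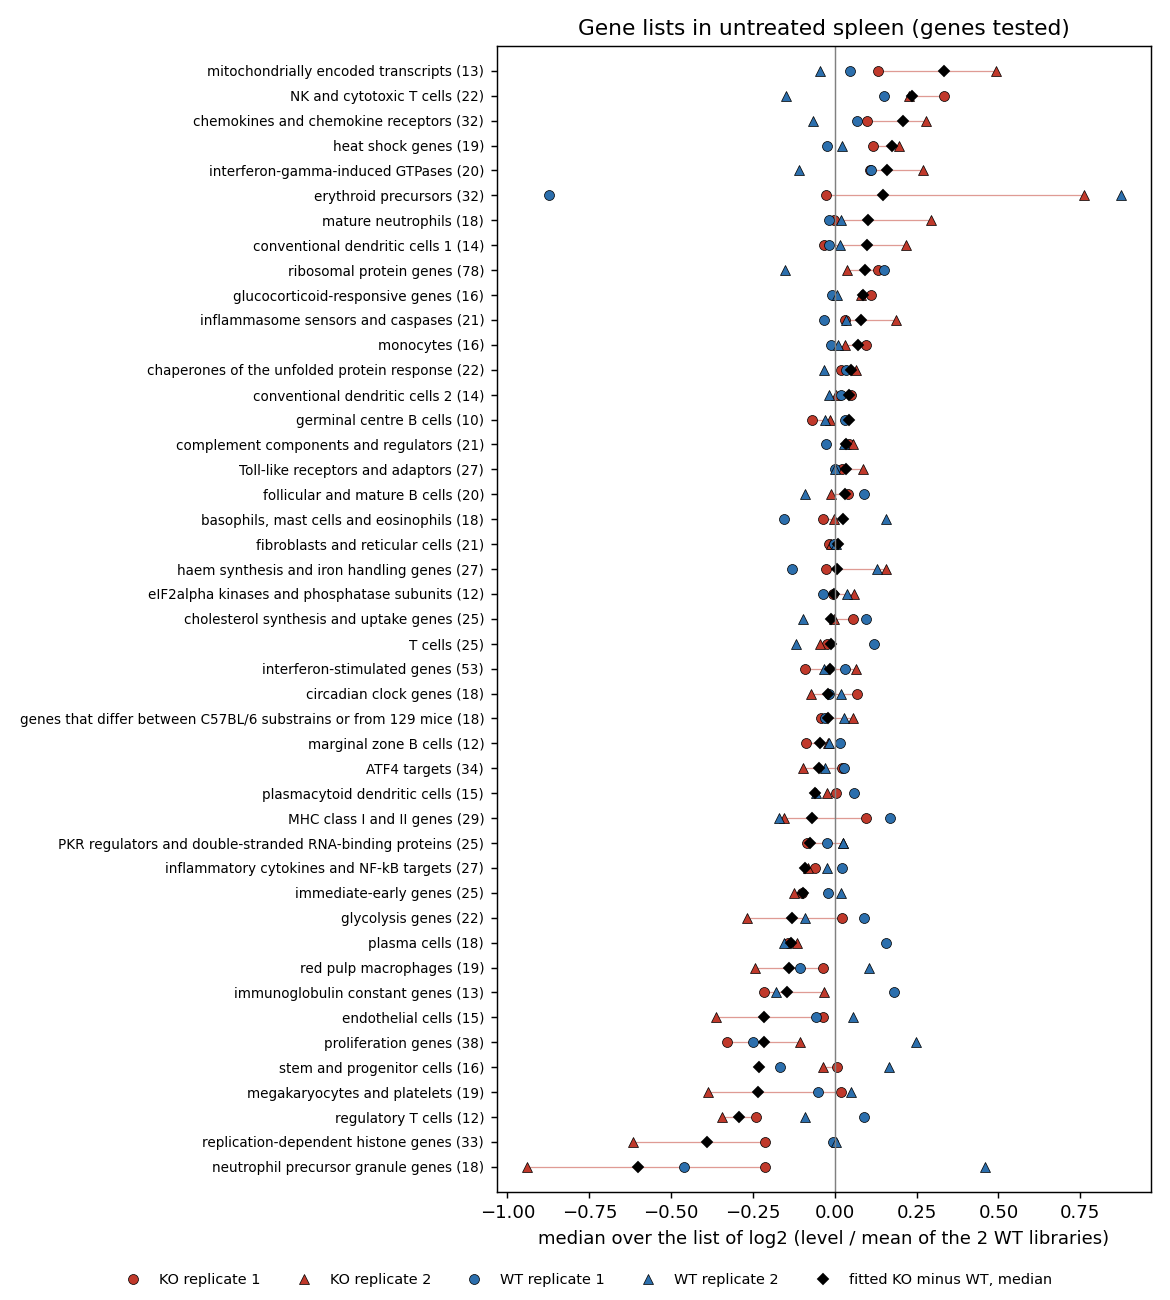
Median over each gene list with 10 or more tested genes (number in brackets) of log2 of the level over the mean of the 2 WT libraries; red symbols are KO and blue symbols WT, circles replicate 1 and triangles replicate 2, and black diamonds the median of the fitted KO minus WT differences. The lists run from a fitted median of 0.33 for mitochondrially encoded transcripts to -0.60 for neutrophil precursor granule genes, and the 2 WT libraries lie at -0.87 and 0.87 for erythroid precursors.

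Genes beside the targeted locus were described as a list by position. Of 52 tested genes within 5 Mb of Eif2ak2, 15 lay higher (28.8%) and 3 lower (5.8%) in KO, beside 18.0% and 14.3% over all genes. Their median log2 difference was 0.09. It was 0.07 after the GC correction, 0.04 without KO replicate 2 and 0.04 without WT replicate 1. Of 102 genes from 5 to 20 Mb away, 30 lay higher (29.4%) and 6 lower (5.9%), with a median of 0.07. It was 0.05 after the GC correction, 0.04 without KO replicate 2 and 0.12 without WT replicate 2. The median GC content of the nearer and farther genes was 46.0% and 47.5%, against 49.3% over all genes tested, so the counts carry the GC trend. None passed the test. In a list of 18 tested genes known to differ between C57BL/6 substrains or inbred strains, 2 lay higher and 4 lower and Ide alone passed. Nnt, which is disrupted in C57BL/6J mice, had 11.047 and 14.5 CPM in KO and 10.2 and 12.5 CPM in WT. Entpd4, duplicated in some substrains, had 5.14 and 4.91 CPM in KO and 5.70 and 6.79 CPM in WT.

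Signs were then compared with those of other days. Of the 1114 genes at an unadjusted p under 0.05 on day 0, 18.0% had the same sign on day 1, 63.2% on day 2 and 33.5% on day 5, in libraries that day 0 did not share. Over all 18745 genes these shares were 36.3%, 56.7% and 45.3%. The GC trend of the genotype difference had a rho of -0.55 on day 0, 0.21 on day 1, -0.39 on day 2 and 0.09 on day 5, and it shared its sign with day 0 on day 2 alone. Of the 4 genes called on day 0, 2 had the same sign on day 1, 3 on day 2 and 3 on day 5. The day 2 values include the library labelled KO day 2 replicate 1, which went against its label, and were not computed without it.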

How the data were processed

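Fragment counts, FPM and FPKM per transcript were deposited by the authors. Per the file headers, counts are fragments per transcript, and the authors' FPKM equals FPM per kilobase; the FPM signal, as deposited, is the count over total fragments. The submitters' processing notes name mm10, bcl2fastq 2.17.1.14, Trimmomatic, HISAT2 and TopHat; the counting program is not given in the sources used here. Because isoforms share fragments, 1 transcript stood for each gene symbol, a protein-coding one where annotated, chosen by highest mean count. Counts of 16 libraries were fitted with edgeR 4.0.16 (TMM, filterByExpr, robust quasi-likelihood test over the 8 groups, with 8 residual degrees of freedom; R 4.3.3), and p-values were adjusted by Benjamini-Hochberg, with calls under 0.05. Alternatives used DESeq2 1.42.0 and limma 3.58.1, with FPKM on the log2 scale after adding 1 or 0.1. Transcript GC content came from GENCODE mouse release 21. Of 1126 list entries, 1124 matched a symbol. Leading genes were the 12 of each direction past the threshold, or else of smallest p, with at least 1 FPKM and separate groups, without predicted genes, variable segments and pseudogenes; each list gave its called members or its 2 of smallest p. Members and lists were chosen with earlier results of these data known. Scripts were tested on simulated data. One sequence comparison is not reported here.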

Additional observations from a re-analysis of the deposited data

Results flagged for a closer look

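For 8 of the named genes the genotype difference on day 1 differed from that on day 0, by a test of the interaction of genotype and day over 18745 genes (edgeR). These 8 had been named for their day 0 values. The same day 0 values enter the interaction, so it is not independent of that choice. In all, 32 genes passed that test for day 1, 0 for day 2 (762 at an unadjusted p under 0.05) and 0 for day 5 (1482 at an unadjusted p under 0.05). The largest was Bicra, whose KO minus WT difference on day 1 exceeded that of day 0 by 2.25 on the log2 scale (adjusted p = 0.015), with -0.95 on day 0 and 1.30 on day 1. The same subtraction gave 1.40 for Bcl9l, 1.13 for Pitpnm2, 1.13 for Prrc2a and 1.08 for Kmt2b, each with an adjusted p of 0.0422. It gave -1.17 for Snora73a (adjusted p = 0.0422), -1.13 for its host Snhg3 (adjusted p = 0.0485) and -1.59 for Ighv1-34 (adjusted p = 0.0425). The genotype difference ran with GC content at a rho over genes of -0.55 on day 0 and 0.21 on day 1, and the part of that trend in these values was not tested.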

How the results depend on the processing

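All 18 alternatives kept the direction of Ide, Zkscan3, Gm26461, Ighv1-34 and Eif2ak2. Of the 18, 9 called Ide, 8 Gm26461, 7 Ighv1-34 and 6 Zkscan3. The count of genes called was 11 with DESeq2, 63 with no filter on low counts, 1 with limma on log2 of FPKM plus 0.1, and 0 with limma on FPKM plus 1 (654 at an unadjusted p under 0.05), with edgeR on genes with an FPKM of 2 or more in 2 libraries (732) and with edgeR on the sum of isoforms (1146). With the replicate number as a block it was 0 (1369 at an unadjusted p under 0.05), and with the block and the GC correction 2. The genotypes share 2 replicate numbers, and the deviations of same-numbered libraries correlated at 0.21 on day 0, -0.09 on day 1, 0.18 on day 2 and -0.07 on day 5, so the numbers were not taken as pairs. Leaving out 1 library gave 0 to 55. Listed genes called numbered 2 with DESeq2, 4 with no filter, 3 in the 4 day 0 libraries alone with the GC correction, an alternative added after the data were seen, and 0 with the block, both limma fits, the FPKM filter or summed isoforms; leaving out 1 library gave 0 to 2. Named genes called numbered 1 in the 4 day 0 libraries alone, 9 with DESeq2, 24 with no filter, 2 with the block and GC correction, and 0 with the block, both limma fits, the FPKM filter or summed isoforms; leaving out 1 library gave 0 to 8. Eif2ak2 did not pass with the replicate block (-0.89, adjusted p = 0.675); it passed without KO day 2 replicate 1, without KO day 2 replicate 2 and in the 4 day 0 libraries with the GC correction (log2 difference -1.01, adjusted p = 0.0161); leaving out 1 library gave -1.05 to -0.76, and adjusted p over all alternatives was 0.0161 to 1.00. Signs turned for 9 genes, none of which passed, only where 1 library was left out: without KO replicate 2 for Ms4a1 (-0.0032 to 0.42 over the fits that leave out 1 library), Ppt1 (-0.00014 to 0.29), Tlr3 (-0.089 to 0.48), Tfrc (-0.14 to 0.67), Ctrl (-0.80 to 0.21) and Fabp4 (-0.28 to 0.041), without WT replicate 1 for Tfrc and Wt1 (-2.61 to 0.48), and without WT replicate 2 for Wfdc21 (-0.79 to 0.083) and Meis1 (-0.79 to 0.062). The cause was not tested. With 2 libraries a genotype, the number of libraries limits these results.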
